A study of Mus musculus with 48 samples.

Results

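The 10 genes described here, Rgs2, Rgs4, Rgs5, Rgs6, Rgs7, Rgs8, Rgs10, Rgs14, Rgs16 and Rgs17, are regulators of G-protein signaling (RGS), taken by name from a count table of 55357 genes in 48 dentate gyrus libraries. All 10 passed the filter for low counts that left 21390 genes for testing. The set was drawn up with results of these data known, and Rgs4 was chosen by its measured levels on the injected side, where it rose briefly, so its values there are given as a description without a test. The libraries came from 24 wild-type C57BL/6J mice that received 1 injection of either kainate, an agonist of ionotropic glutamate receptors, or saline into 1 hippocampus. Brains were taken at day 3, 7 or 14, with 4 kainate-injected and 4 saline-injected mice at each day, 2 male and 2 female, aged 6 to 8 weeks in the series text and 8 to 10 weeks in the methods. From each mouse the dorsal dentate gyrus of the injected side, called the epileptogenic zone (EZ), and that of the contralateral side, called the peri-ictal zone (PIZ), each gave 1 library, which made 12 groups of 4. Every kainate-injected mouse had at least 1 behavioral seizure of Racine stage 3 to 6 within 2 h, no electroencephalogram was recorded, and saline mice had no observed seizure. The tissue was dissected without sorting of cells, so each value is an average over all cell types in the piece.

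RGS proteins shorten signaling by heterotrimeric G proteins: they speed the hydrolysis of GTP on an active G alpha subunit, which then rejoins G beta-gamma and stops acting on its effectors. In hippocampal neurons they act downstream of metabotropic glutamate, GABA-B, muscarinic, adenosine and other receptors that couple to Gi/o or Gq, and so limit how long such receptors change calcium, cyclic AMP and inwardly rectifying potassium currents. By sequence the members fall into the small R4 proteins (Rgs2, Rgs4, Rgs5, Rgs8 and Rgs16), the R7 proteins (Rgs6 and Rgs7), which are stable only with the atypical subunit G beta 5, the R12 proteins (Rgs10 and Rgs14) and the RZ protein Rgs17.

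The members lie on chromosomes 1, 7, 10, 12 and 13, and 6 of them, Rgs2, Rgs4, Rgs5, Rgs7, Rgs8 and Rgs16, are on chromosome 1 (GRCm39). Rgs4 (ENSMUSG00000038530.12, 169569046 to 169575218, minus strand) lies 44.2 kb from Rgs5 (ENSMUSG00000026678.11, 169483036 to 169524887, plus strand) with no annotated gene between them. Rgs8 (153528714 to 153576069) and Rgs16 (153616091 to 153621228), both on the plus strand, lie 40021 bases apart with 1 non-coding gene between them. Rgs4 and Rgs2 (143875076 to 143879899, minus strand) are the R4 members with the highest fold changes on the injected side at day 3, and the 250 bases before their RefSeq start sites are shown for this reason, from build GRCm38.p6 with coordinates of that build. The capitals mark TGACG, the core of the cyclic AMP response element, or CGTCA where it lies on the other strand.
Rgs4, chr1:169747643-169747892, minus strand: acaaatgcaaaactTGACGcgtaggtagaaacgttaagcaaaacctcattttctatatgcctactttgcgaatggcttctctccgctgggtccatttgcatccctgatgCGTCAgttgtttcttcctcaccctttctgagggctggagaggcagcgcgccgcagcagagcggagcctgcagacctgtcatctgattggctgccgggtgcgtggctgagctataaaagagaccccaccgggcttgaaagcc
Rgs2, chr1:144004150-144004399, minus strand: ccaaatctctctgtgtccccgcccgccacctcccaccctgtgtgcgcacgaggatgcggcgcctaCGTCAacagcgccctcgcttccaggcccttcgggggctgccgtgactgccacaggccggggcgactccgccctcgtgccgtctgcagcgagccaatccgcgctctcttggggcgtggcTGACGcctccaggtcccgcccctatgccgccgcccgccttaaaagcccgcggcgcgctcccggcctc
The core was picked after these sequences had been read, and it occurred in the windows of Rgs2, Rgs4 and Rgs8 and in 20.8% of all 32851 RefSeq windows of 300 bases, so that its presence is common. The palindrome TGACGTCA was in no window of the 9 members in the RefSeq table and in 1.79% of all windows. Searched on both strands, the AP-1 motif TGANTCA was found for Rgs17 (7.81% of all windows), the EGR motif GCGNGGGCG for Rgs2 (5.55%), and a degenerate NF-kB motif for Rgs6, Rgs10 and Rgs16 (20.7%). A match describes letters in a window, and binding was not measured.

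Libraries held 17762656 to 25712975 counts (median 22108562.5), so that counting error weighed most on Rgs16. The median count per library was 3046.5 for Rgs4 and 77.5 for Rgs16, whose lowest library held 44 counts. Per kilobase of exon, Rgs4 was the most abundant member in saline mice, with 36.6 ± 3.03 RPKM (SD, n = 12 libraries) in the EZ and 42.4 ± 9.40 in the PIZ. In the saline EZ, Rgs5 followed at 15.8 RPKM, Rgs14 at 13.6, Rgs10 at 12.95, Rgs8 at 10.9, Rgs7 at 10.2, Rgs2 at 9.95, Rgs17 at 5.53, Rgs6 at 1.84 and Rgs16 at 1.63. The ranges of libraries did not overlap between Rgs4 and Rgs5, between Rgs2 and Rgs17, or between Rgs17 and Rgs6, and they overlapped between all other neighbors in this order. In saline mice no member was called between EZ and PIZ at any day by edgeR or DESeq2 (0 of 10, beside 0.0281% of all genes at day 3 and 0% at days 7 and 14 by edgeR), and 0 members had an unadjusted p under 0.05. With mouse as a replicate block, which compares the sides within each mouse, 0 members were called as well, and the lowest adjusted p was 0.363 (Rgs6 at day 3). Within mice the sides still often differed in 1 direction. Rgs10 was higher in the EZ in 11 of 12 saline mice (EZ minus PIZ from -0.05 to 0.86 in log2 CPM, median 0.25), and Rgs2 and Rgs6 in 10 of 12 each (medians 0.20 and 0.31). Rgs4, Rgs5 and Rgs17 were lower in the EZ in 10 of 12 each (medians -0.09, -0.11 and -0.12). Of all genes, 8.78% were higher and 7.89% lower in the EZ in at least 10 of 12 saline mice. At day 3 all 4 saline EZ libraries lay above all 4 saline PIZ libraries for Rgs6 and Rgs10, as for 5.16% of all genes, and below them for Rgs4 and Rgs5, as for 2.73%. Prox1, the transcription factor that defines granule cells, was among the 2 most abundant genes of the granule cell list and did not pass at day 3 on the injected side (log2 fold change -0.12, SE 0.26, edgeR adjusted p = 0.731). The list as a whole was lower there, with a summed level of 465 to 652 CPM in kainate mice against 759 to 971 in saline mice.

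Rgs4, which acts on Gi/o and Gq and turns over quickly as a protein, stood far above saline on both sides at day 3 and much nearer to it, though still above it in all kainate libraries, at day 7. In the EZ at day 3 it was at 935, 427, 479 and 733 CPM (counts relative to the TMM-scaled library size) in kainate mice 30, 38, 42 and 44, against 108 to 121 CPM in the 4 saline mice. The lowest kainate library thus lay far above the highest saline library. At day 7 the 4 kainate mice held 132, 153, 177 and 156 CPM and the saline mice 103 to 118. At day 14 they held 144, 180, 156 and 152 CPM against 98.0 to 132 in saline. The kainate libraries of the EZ thus lay above those of saline at every day, but the group mean fell from 644 ± 236 CPM (SD, n = 4) at day 3 to 154 ± 18.8 at day 7 and was 158 ± 15.7 at day 14. The fitted log2 fold change was 2.46 (SE 0.24) at day 3, a 5.52-fold increase, then 0.50 (SE 0.23) and 0.46 (SE 0.23), and its change from day 3 to day 7 was -1.97 (SE 0.33). These EZ values chose the gene and carry no test. Because the libraries are of whole tissue, fewer cells of a type and less RNA per cell cannot be told apart.

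The PIZ, which received no injection, showed the same gene at a raised level. At day 3 Rgs4 was at 782, 317, 237 and 596 CPM in kainate mice 30, 38, 42 and 44, against 183, 128, 135 and 130 CPM in saline mice 18, 29, 37 and 41. The groups did not overlap, and the log2 fold change was 1.75 (SE 0.24, edgeR adjusted p = 2.88e-06), a 3.36-fold increase. Leaving out any 1 mouse kept it between 1.42 and 1.97, past the threshold each time. These PIZ libraries came from the same mice as the EZ libraries whose values chose the gene. The set was also drawn up with results of these data known. The PIZ tests of Rgs4 are therefore not independent evidence of a rise. At day 7 the kainate mice held 205, 245, 192 and 148 CPM, still above all 4 saline mice (109 to 118), but the difference of 0.82 (SE 0.23) did not pass (adjusted p = 0.0636). It did pass in a model of the compared groups only (adjusted p = 0.00872). By day 14 the groups overlapped, at 146 to 222 CPM against 107 to 198 (0.33, SE 0.23, adjusted p = 0.946).

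At day 3 mouse 30 held the most Rgs4 on both sides, followed by mouse 44 on both, while mice 38 and 42 were the lower pair, with mouse 42 above mouse 38 in the EZ and below it in the PIZ. Within each of the 4 mice the EZ exceeded the PIZ, by 0.26 (mouse 30), 0.43 (mouse 38), 1.02 (mouse 42) and 0.30 (mouse 44) on the log2 CPM scale, whereas in the 4 saline mice of that day the PIZ was the higher side, with EZ minus PIZ between -0.60 and -0.08. The fitted kainate effect on Rgs4 was 0.72 (SE 0.33) larger in the EZ than in the PIZ at day 3, and 0.79 (SE 0.19) with mouse as a replicate block, both given as a description because the EZ values chose the gene. In the PIZ the effect changed by -0.93 (SE 0.33) from day 3 to day 7, which did not pass the threshold (adjusted p = 0.289).

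**Figure D1:**
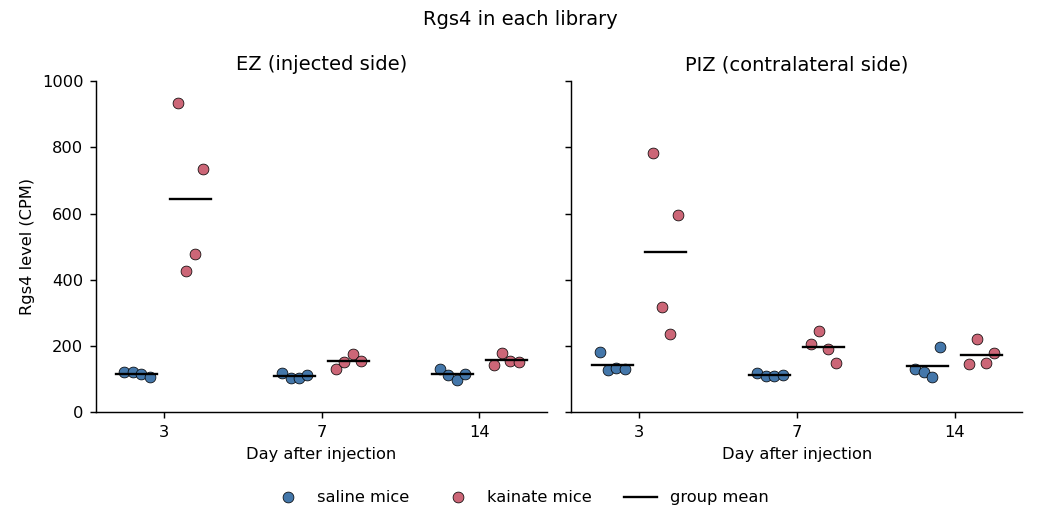
Rgs4 level in CPM (linear vertical axis from 0) against day after injection in the EZ (left) and PIZ (right), with 1 point per library, 4 mice per group, and the group mean as a black bar. At day 3 the kainate libraries reach 427 to 935 CPM in the EZ and 237 to 782 CPM in the PIZ, above all saline libraries, and at days 7 and 14 they lie at 132 to 245 CPM.

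Rgs4 was set beside the neuronal and immediate early genes. After removal of the group means, its log2 CPM correlated with the summed level of a list of 9 pan-neuronal genes at r = 0.30 and with that of 15 immediate early genes at r = 0.15 (48 libraries from 24 mice, as a description). Within the 24 saline libraries the values were r = 0.55 and r = 0.04. The EZ library of mouse 44 at day 3 held 733 CPM of Rgs4 while its immediate early genes summed to 540 CPM, inside the saline range of that day (449 to 780), and the other 3 kainate mice summed to 1726 to 3042 CPM. The 5 genes most like Rgs4 in log2 CPM over all 48 libraries were Fam110c (r = 0.907), Srxn1, an antioxidant enzyme (r = 0.895), the Wnt ligand Wnt7b (r = 0.891), Cdh13, a GPI-anchored cadherin (r = 0.872), and Tmeff2, a transmembrane protein (r = 0.865). The 8 kainate libraries of day 3 carry much of this likeness: without them r was 0.312 for Fam110c, 0.548 for Wnt7b, 0.696 for Srxn1, 0.806 for Tmeff2 and 0.825 for Cdh13 over 40 libraries. Fam110c had 0 to 2 counts in every saline library and 0.979 to 8.55 CPM in the EZ at day 3. Srxn1 lay at 58.8 to 86.4 CPM in saline mice and at 128 to 157 CPM in the EZ at day 3.

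Across the other 9 members, 5 were called by edgeR in the EZ at day 3, where a call needs an adjusted p under 0.01 and over 1.5-fold change, namely Rgs2, Rgs5 and Rgs16 upward and Rgs8 and Rgs14 downward, beside 24.7% of all 21390 genes (16.1% up, 8.61% down). At day 7, 6 members passed, Rgs2, Rgs5 and Rgs10 upward and Rgs8, Rgs14 and Rgs17 downward, beside 32.5% of all genes (20.6% up, 11.9% down). At day 14 none of the 9 passed in the EZ, where 2.36% of all genes did, and 2 members had an unadjusted p under 0.05. In the PIZ, Rgs4 and Rgs10 passed upward at day 3 beside 8.69% of all genes (7.12% up, 1.57% down), and none passed at day 7 (0.201% of all genes) or day 14 (0.014%), with 2 members and 1 member at an unadjusted p under 0.05. DESeq2 made no call among the members at EZ day 14, PIZ day 7 or PIZ day 14 either. Leaving Rgs4 aside in the EZ, the kainate libraries of Rgs5 and Rgs10 at day 3 all lay above those of saline, as in 23.9% of all genes, and those of Rgs8 and Rgs14 all lay below, as in 18.5%. At day 7 this held upward for Rgs2, Rgs5 and Rgs10 (23.7% of all genes) and downward for Rgs8, Rgs14 and Rgs17 (20.1%), and at day 14 upward for none (4.58%). In the PIZ it held upward for Rgs2, Rgs4, Rgs6 and Rgs10 (17.1%) and downward for Rgs7 (13.6%) at day 3, upward for Rgs4 at day 7 (7.63%) and upward for Rgs6 at day 14 (3.7%).

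**Figure D2:**
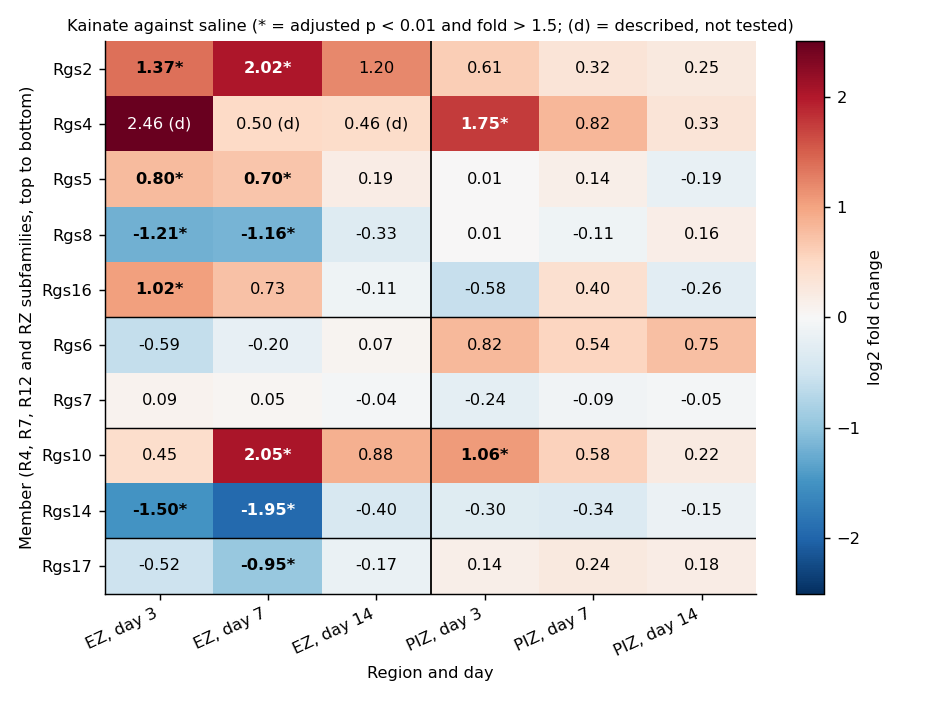
Log2 fold change of kainate against saline (color, red for higher and blue for lower in kainate) for the 10 members in rows and region and day in columns, 4 mice per group. Asterisks mark values past the adjusted p and fold thresholds, and (d) marks the EZ values of Rgs4, which are described and not tested. The values range from -1.95 for Rgs14 in the EZ at day 7 to 2.46 for Rgs4 in the EZ at day 3, and Rgs7 stays between -0.24 and 0.09.

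Among the other R4 members, Rgs2, a regulator selective for Gq that is itself an activity-regulated gene, rose in the EZ at days 3 and 7. At day 3 it was at 159, 108 and 89.6 CPM in mice 30, 38 and 42 but at 37.7 CPM in mouse 44, within the saline range of 33.5 to 43.5. The log2 fold change was 1.37 (SE 0.36, adjusted p = 0.00182), and without mouse 30 it was 1.04 and no longer passed (adjusted p = 0.021), nor did it pass in a model of the compared groups only (adjusted p = 0.0111). At day 7 all 4 kainate mice, at 146, 111, 105 and 202 CPM, lay above saline at 33.2 to 37.5 (2.02, SE 0.36, adjusted p = 1.47e-05). At day 14, mouse 27 held 212 CPM and the other 3 kainate mice 33.4 to 44.1, against 32.2 to 37.7 in saline. The day 14 difference of 1.20 (SE 0.36, adjusted p = 0.0387) was 0.08 without mouse 27 and passed without mouse 14 or mouse 36. In the PIZ at day 3 the kainate mice held 39.1 to 51.2 CPM and the saline mice 24.4 to 34.6, without overlap, and the log2 fold change of 0.61 (SE 0.36) did not pass (adjusted p = 0.221). It passed in a model of the compared groups only (adjusted p = 0.00449).

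Rgs2 was set beside the immediate early genes. After removal of group means its log2 CPM correlated with the summed level of the 15 genes at r = 0.82 over 48 libraries, and at r = 0.33 within the 24 saline libraries. In the EZ 13 of the 15 rose at day 3 (median log2 fold change 1.97) and 12 at day 7 (median 2.00), none passed at day 14, and in the PIZ at day 3 Nptx2 alone rose (1.59, SE 0.42, adjusted p = 0.00518). Nptx2, which encodes a secreted pentraxin of excitatory synapses, had the smallest p of the list in the EZ at day 3, at 3.41 (SE 0.44, adjusted p = 2.7e-07), ahead of Junb (1.97, SE 0.29) and Ier2 (2.10, SE 0.34). Mouse 44, with saline-like Rgs2 in the EZ at day 3, was also the mouse with the lowest immediate early sum of its group, and mouse 27, with 212 CPM of Rgs2 at day 14, held 1742 CPM of these genes against 514 to 542 in the other 3. In the PIZ at day 3, where Rgs2 did not overlap, the sums did, at 459 to 669 CPM in kainate mice and 451 to 611 in saline mice.

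Rgs5, which acts on Gi and Gq and marks pericytes and vascular smooth muscle, rose moderately in the EZ. At day 3 it was at 146, 251.2, 182 and 131 CPM in mice 30, 38, 42 and 44 against 95.3 to 106 CPM in saline, with no overlap. The log2 fold change was 0.80 (SE 0.15, adjusted p = 6.18e-05), and without mouse 38 it was 0.58, below the fold threshold. At day 7 the kainate mice held 184, 121, 121 and 180 CPM and the saline mice 88.3 to 101, again without overlap (0.70, SE 0.15, adjusted p = 0.000191). At day 14 the groups overlapped, and in the PIZ the log2 fold changes were 0.01, 0.14 and -0.19 at the 3 days, none past the threshold. The value of 0.01 changed sign under RLE scaling, without a filter and in DESeq2. Of 9 mural cell genes, a list without Rgs5, 5 rose in the EZ at day 3 (median 0.79) and 6 at day 7 (median 0.85). Their summed level was 180 to 466 CPM in kainate mice at day 3 against 132 to 167 CPM in saline. With group means removed, Rgs5 correlated with that sum at r = 0.80 and with the sum of 6 endothelial genes, of which 3 rose at day 3 (median 0.66), at r = 0.83. Within the 24 saline libraries these were r = 0.43 and r = 0.42. Pdgfrb, the pericyte receptor for PDGF-B, rose by 0.79 (SE 0.18, adjusted p = 0.000408) at day 3, and Vtn, vitronectin, had 0.40 (SE 0.16, adjusted p = 0.0358). The part of vascular cell number in the Rgs5 values was not tested.

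Rgs16, an inducible regulator of Gi and Gq and the least abundant member, was uneven between mice. In the EZ at day 3 it was at 3.02, 15.5, 7.80 and 5.22 CPM in mice 30, 38, 42 and 44 against 3.33 to 4.11 CPM in saline. Mouse 30, the one with the most Rgs4, lay below the saline range, and mouse 38 stood far above the other 3. The log2 fold change of 1.02 (SE 0.33, adjusted p = 0.00919) was 0.47 without mouse 38 (adjusted p = 0.238), and the call also failed without any 1 of 5 other mice, under RLE scaling (adjusted p = 0.0105), without a filter and in a model of the compared groups (adjusted p = 0.08). At day 7 mice 21 and 35 held 9.52 and 10.1 CPM and mice 23 and 26 held 2.45 and 4.29, against 2.96 to 5.51 in saline (0.73, SE 0.33, adjusted p = 0.0522), and without mouse 23 the value passed (adjusted p = 0.00633). In the PIZ no day passed, with log2 fold changes of -0.58, 0.40 and -0.26.

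Rgs8, which acts on Gi/o and Gq, was the R4 member that fell. In the EZ at day 3 it was at 41.9, 31.9, 50.8 and 82.8 CPM in mice 30, 38, 42 and 44 against 110 to 125 CPM in saline, with no overlap. The log2 fold change was -1.21 (SE 0.30, adjusted p = 0.00112), and without mouse 38 it was -1.03 (adjusted p = 0.0104). At day 7 the 4 kainate mice split into 24.3 and 21.4 CPM (mice 21 and 35) and 97.1 and 79.1 CPM (mice 23 and 26), all below saline at 120 to 131 (-1.16, SE 0.30, adjusted p = 0.00115). Without mouse 21 or mouse 35 this value was -0.91 or -0.89 and failed (adjusted p = 0.012 and 0.0118), as it did in a model of the compared groups only (adjusted p = 0.0683). In the PIZ the values were 0.01, -0.11 and 0.16 with overlapping groups at every day, the first of them changing sign under RLE scaling, without a filter and in DESeq2. So Rgs4 and Rgs8, of the same subfamily, had opposite signs in the EZ at day 3, where Rgs4 rose 5.52-fold and Rgs8 fell 2.31-fold.

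**Figure D3:**
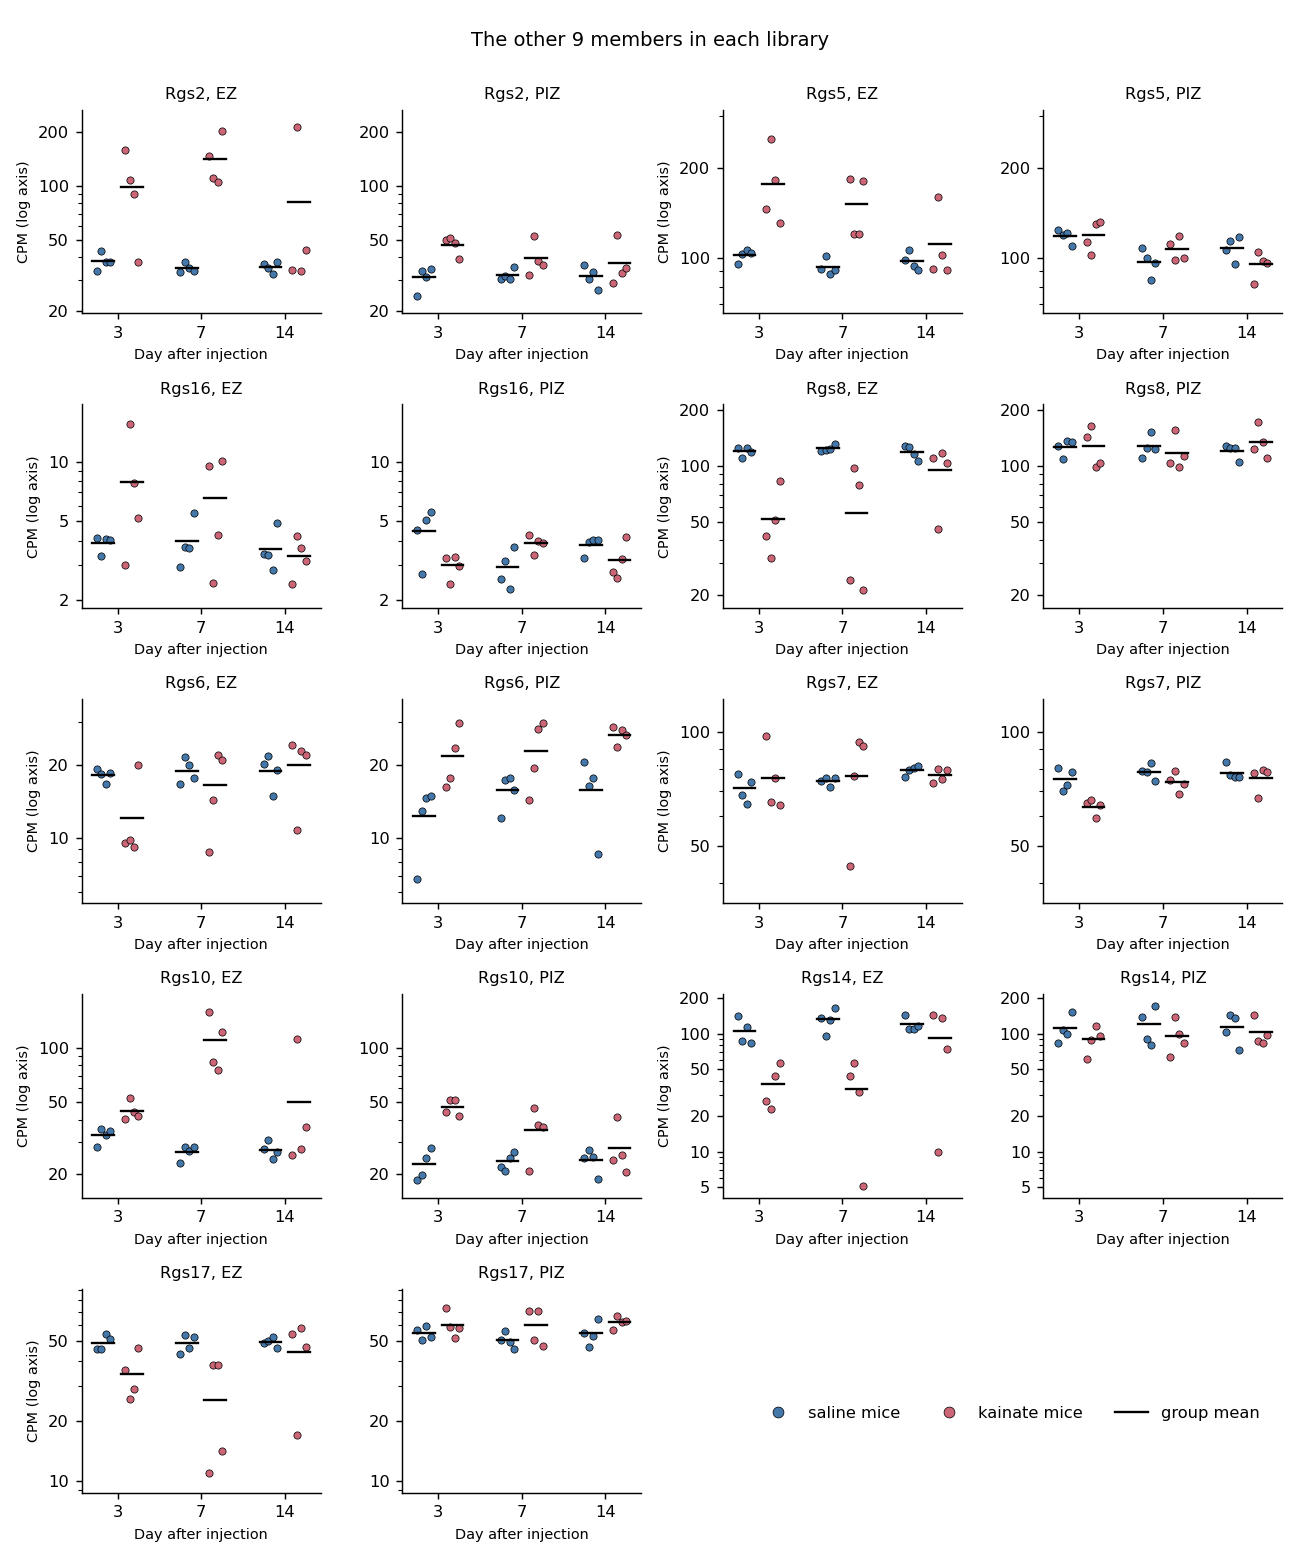
Level in CPM (log vertical axis, own range for each gene, shared by its EZ and PIZ panels) of the other 9 members against day after injection, with 1 point per library, 4 mice per group, and the arithmetic group mean as a black bar. In the EZ, Rgs10 of the kainate mice at day 7 lies at 75.7 to 158 CPM above saline at 22.97 to 28.2, Rgs14 at day 3 lies at 22.96 to 56.6 CPM below saline at 83.0 to 142, and single kainate mice stand apart at day 14.

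No R7 member passed the threshold in any comparison. Rgs7, an abundant neuronal regulator of Go, was at 64.1 to 97.3 CPM in the EZ of kainate mice at day 3 and at 64.6 to 77.7 in saline, and its log2 fold change lay between -0.24 and 0.09 over the 6 comparisons, none past the threshold. In the PIZ at day 3 the kainate libraries (59.3 to 66.0 CPM) all lay below saline (69.8 to 80.4), with -0.24 (SE 0.12, adjusted p = 0.149). Of its 5 partner genes 2 fell in the EZ at day 3: Gpr158, an orphan receptor that anchors R7 complexes, fell by 1.302 (SE 0.28, adjusted p = 0.000276), and Rgs7bp, the membrane anchor of the R7 proteins, fell by 0.83 (SE 0.27, adjusted p = 0.00972). Gnb5, which encodes G beta 5, had 0.04 (SE 0.11) at day 3 and fell by 0.64 (SE 0.11, adjusted p = 4.71e-06) at day 7. At day 7, 3 of the 5 fell and 1 rose on the injected side, and in the PIZ at day 3 the only call was a rise of Gpr179, an orphan receptor related to Gpr158 (2.26, SE 0.61, adjusted p = 0.00589).

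Rgs6 had opposite signs on the 2 sides at day 3. In the EZ it was at 9.53, 9.79 and 9.18 CPM in mice 30, 38 and 42 and at 20 CPM in mouse 44, against 16.7 to 19.3 CPM in saline. The log2 fold change of -0.59 (SE 0.28) did not pass (adjusted p = 0.0766), but without mouse 44 it was -0.94 and passed (adjusted p = 0.00541). In the PIZ the same mice held 16.3, 17.7, 23.4 and 29.8 CPM, all above saline at 6.78, 12.9, 14.7 and 14.9. That increase of 0.82 (SE 0.28) missed the threshold (adjusted p = 0.0293). The difference between the sides was -1.41 (SE 0.39, adjusted p = 0.0682). At day 14 Rgs6 in the PIZ again lay above saline without overlap, at 23.6 to 28.6 CPM against 8.62 to 20.5 (0.75, SE 0.28, adjusted p = 0.584).

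The R12 members went in opposite directions. Rgs10, which acts on Gi and is abundant in microglia, was at 40.4, 52.8, 43.8 and 41.8 CPM in the EZ at day 3 against 28.3 to 35.6 in saline, above without overlap but not past the threshold (0.45, SE 0.28, adjusted p = 0.195). At day 7 it was at 158, 82.9, 75.7 and 122 CPM in mice 21, 23, 26 and 35 against 22.97 to 28.2 in saline, a 4.14-fold rise (2.05, SE 0.29, adjusted p = 3.32e-07). At day 14 mouse 27 held 112 CPM and the other 3 kainate mice 25.3 to 36.4 against 24.2 to 30.7 (0.88, SE 0.28, adjusted p = 0.0607), a difference of 0.13 without mouse 27. In the PIZ at day 3 the kainate mice, at 43.8, 51.4, 51.5 and 41.9 CPM, lay above saline at 18.4 to 27.7 (1.06, SE 0.29, adjusted p = 0.00627). With 1 mouse fewer that value lay between 0.97 and 1.17 but failed in each of the 8 cases, with adjusted p from 0.0104 to 0.0296. The kainate effect was 1.47 (SE 0.40) larger in the EZ than in the PIZ at day 7 (adjusted p = 0.00792, beside 9.89% of all genes called), and this call was lost without a filter (adjusted p = 0.0134), as well as without any 1 of mice 20, 21, 33, 34, 35 and 89 (1.06 to 1.55). With mouse as a replicate block it was 1.44 (SE 0.33, adjusted p = 0.00424).

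All 7 microglia genes of the list rose in the EZ at day 7 (median 2.66) and in the PIZ at day 3 (median 1.53), and 6 rose in the EZ at day 3 (median 1.52). Their summed level was 1475 to 5328 CPM in the EZ of kainate mice at day 7 against 427 to 466 in saline, and 934 to 1148 CPM in the PIZ at day 3 against 296 to 413. With group means removed, Rgs10 correlated with that sum at r = 0.83 over 48 libraries, and at r = 0.76 within the saline libraries alone. Csf1r, the receptor microglia need to survive, rose by 2.66 (SE 0.31, adjusted p = 2.84e-08) in the EZ at day 7. At day 14 in the EZ 5 of the 7 microglia genes were up (median 1.36), but without mouse 27, whose sum was 2688 CPM against 478 to 660 in the other 3 kainate mice and 391 to 409 in saline, edgeR called 0 of 7 (median 0.48, with 2 at an unadjusted p under 0.05), in a fit where the calls over all genes fell from 504 to 7 (0.0323%). The part of microglial number in the Rgs10 values was not tested. Among infiltrating leukocyte genes, Cd3e, Cd3g and Ms4a1 had at most 20 counts in any library and were not tested, and of the other 4 the EZ had 1 called upward at day 3 and 1 at day 7.

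Rgs14, a scaffold with Ras-binding and G alpha-binding domains that is best known from CA2 pyramidal neurons, had the largest fall of the members. In the EZ at day 3 it was at 26.9, 22.96, 43.8 and 56.6 CPM in mice 30, 38, 42 and 44 against 83.0 to 142 CPM in saline, with no overlap, and the log2 fold change was -1.501 (SE 0.47, adjusted p = 0.00768). At day 7 it was at 43.9, 56.4, 31.9 and 5.10 CPM in mice 21, 23, 26 and 35 against 94.8 to 165 (-1.95, SE 0.47, adjusted p = 0.00063). At day 14 mouse 27 was at 9.92 CPM and the other 3 kainate mice at 74.3 to 145, against 110 to 145 in saline. The day 3 call failed with library size as the only scaling (-1.37, adjusted p = 0.0119) and without any 1 of mice 18, 29, 30, 37, 38 and 42 (-1.32 to -1.59). The day 7 call failed in a model of the compared groups only (adjusted p = 0.0242). In the PIZ no value passed (-0.30, -0.34 and -0.15). Saline libraries also spread widely for Rgs14, with a coefficient of variation of 13.9 to 35.6% within groups, against 2.54 to 8.23% for Rgs7.

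The marker lists of the neighboring pyramidal fields were compared beside Rgs14. Of 5 CA2 genes, a list without Rgs14, 1 fell in the EZ at day 3 (median -0.63) and 3 at day 7 (median -0.92). Necab2 and Pcp4, both calcium-related proteins and the 2 most abundant of the list, had day 3 values of -0.63 (SE 0.33, adjusted p = 0.116) and, for Pcp4, -0.68 (SE 0.26, adjusted p = 0.0267). Of 6 genes of CA1 and CA3 pyramidal cells, 5 fell at day 3 (median -1.70) and 6 at day 7 (median -1.65), and their sum was 113 to 242 CPM at day 3 against 428 to 614 in saline. With group means removed, Rgs14 correlated with the CA2 sum at r = 0.58 and with the CA1 and CA3 sum at r = 0.59, and within saline libraries at r = 0.47 and r = 0.22. The difference in content of neighboring fields was not tested as a source of the Rgs14 values.

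Rgs17, the RZ member, acts on Gi, Gz and Gq and is highly expressed in brain. On the injected side it was at 36.04, 25.8, 28.9 and 46.4 CPM against 45.5 to 54.1 in saline at day 3 (-0.52, SE 0.26, adjusted p = 0.096). At day 7 it was at 10.97, 38.2, 38.1 and 14.2 CPM in mice 21, 23, 26 and 35, all below saline at 43.0 to 53.6 (-0.95, SE 0.26, adjusted p = 0.00239), and the call failed without mouse 21 or mouse 35 (-0.70 and -0.75) and in a model of the compared groups (adjusted p = 0.0758). The 2 mice with the least Rgs17 were also the 2 with the least Rgs8 and the lowest neuronal sums, 1560 and 1739 CPM against 3831 and 3532 in mice 23 and 26 and 5012 to 6379 in saline. In the PIZ the values were 0.14, 0.24 and 0.18, none past the threshold.

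The pan-neuronal list, which holds none of the members, had 4 of 9 genes down and 1 up in the EZ at day 3 (median -0.59) and 6 down at day 7 (median -0.995), beside medians of 0.03 and 0.01 over all genes. Snap25, a synaptic vesicle fusion protein and its most abundant gene, fell by 1.28 (SE 0.21, adjusted p = 6.98e-06) at day 3 and by 1.53 (SE 0.21, adjusted p = 2.14e-07) at day 7. Map2, the next in abundance, did not pass at day 3 (-0.38, SE 0.18, adjusted p = 0.0819) and fell by 0.61 (SE 0.18, adjusted p = 0.00482) at day 7. With group means removed, the neuronal sum correlated with Rgs8 at r = 0.79 and with Rgs17 at r = 0.82, and within saline libraries at r = 0.37 and 0.32. In the same 2 ways, Rgs17 correlated with the interneuron sum at r = 0.42 and 0.62, and Rgs8 with the CA1 and CA3 sum at r = 0.39 and -0.36. Rgs4 in the EZ at day 3 rose in libraries whose neuronal sum, at 2273 to 4056 CPM, was below that of every saline library of that day (4932 to 6043). The part of neuron number in the values of Rgs8 and Rgs17 was not tested.

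**Figure D4:**
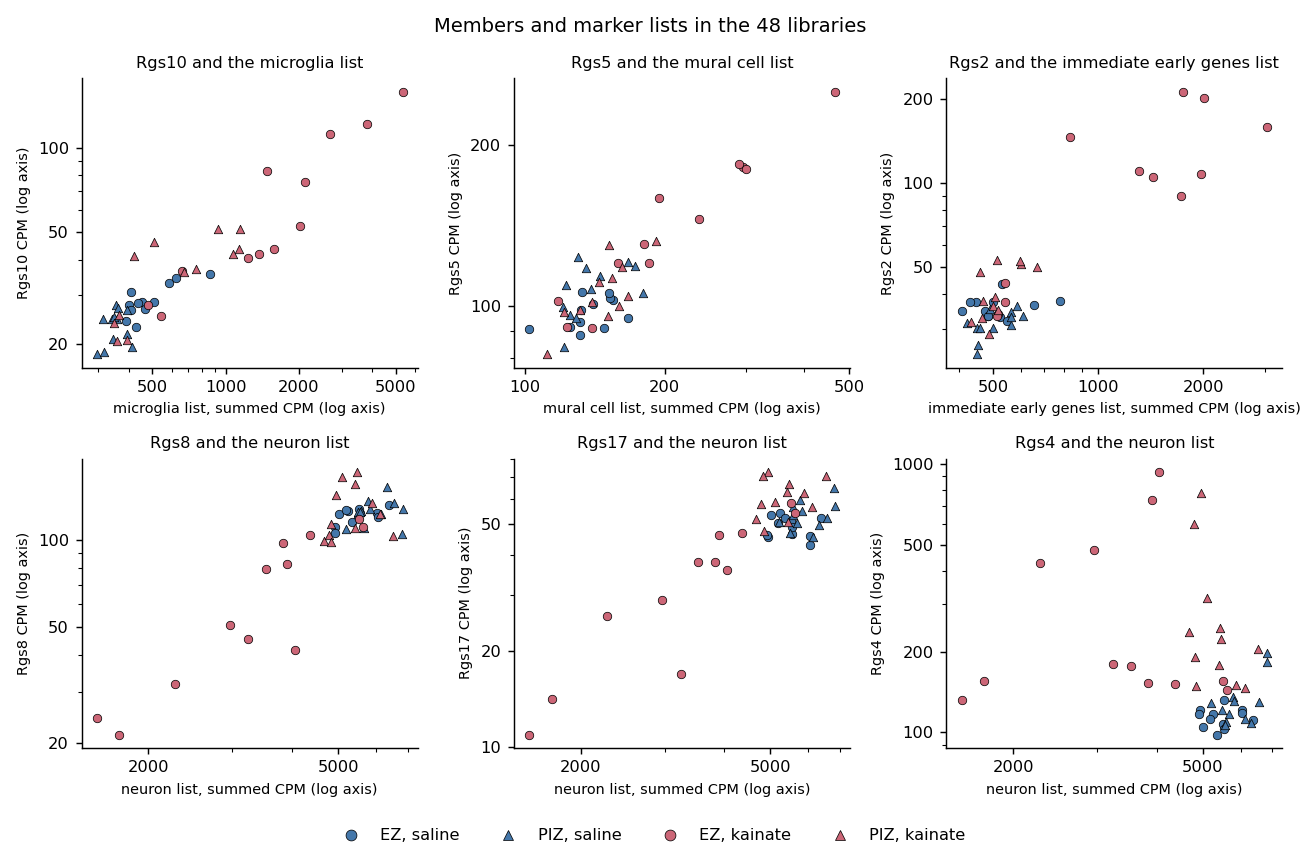
Level of a member in CPM against the summed CPM of a marker list that does not hold it (both log axes), with 1 point per library (circles for EZ, triangles for PIZ, blue for saline, red for kainate, 48 libraries from 24 mice). Rgs10, Rgs5 and Rgs2 rise with the microglia, mural cell and immediate early sums, Rgs8 and Rgs17 are lowest where the neuronal sum is lowest (1560 and 1739 CPM), and Rgs4 reaches 427 to 935 CPM at neuronal sums of 2273 to 4056 CPM.

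The difference of the kainate effect between EZ and PIZ was called for no member at day 3 (0.0655% of all genes), for Rgs10 at day 7 (9.89%) and for none at day 14 (0%). At day 3, 4 of the 9 members other than Rgs4 had an unadjusted p under 0.05, and the largest differences were 1.597 for Rgs16 (SE 0.47, adjusted p = 0.0788) and -1.41 for Rgs6. By DESeq2 no member was called at day 3 or day 14, and at day 14 edgeR left 0 members at an unadjusted p under 0.05. At day 7 Rgs2 differed by 1.70 (SE 0.50, adjusted p = 0.0124) and Rgs17 by -1.19 (SE 0.37, adjusted p = 0.0161), just outside the threshold, and with mouse as a replicate block Rgs2 passed (1.68, SE 0.37, adjusted p = 0.00364). Between days 3 and 7 the kainate effect in the EZ changed past the threshold for 0.145% of all genes. Among the members other than Rgs4 this change was largest for Rgs10, at 1.604 (SE 0.40, adjusted p = 0.0482), which missed the threshold and had the opposite sign to the -1.97 of Rgs4. From day 7 to day 14 no member passed in the EZ by edgeR (0.271% of all genes did, and 4 members had an unadjusted p under 0.05) or DESeq2, but without mouse 27 Rgs2 (-1.94), Rgs5 (-0.74), Rgs10 (-1.92) and Rgs14 (1.92) did, in a fit that called 4087 genes (18.8% of all) against 58 with that mouse. In the PIZ no member passed by either tool from day 3 to day 7 (0.0234% of all genes, with 2 members at an unadjusted p under 0.05 by edgeR) or from day 7 to day 14 (0% of all genes, with 0 members).

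At day 14 in the EZ, mouse 27 stood apart from the other 3 kainate mice. Its library lay outside their range for all 10 members, which was also so for 77.4% of all genes, and outside both their range and that of saline for 8 members, beside 69% of all genes. The 2 exceptions were Rgs7 and Rgs16. Mouse 27 was higher in Rgs2 (212 CPM), Rgs4 (180), Rgs5 (159) and Rgs10 (112) and lower in Rgs6 (10.8), Rgs8 (45.5), Rgs14 (9.92) and Rgs17 (17.0). Its microglia genes summed to 2688 CPM and its neuronal genes to 3240 CPM. Without mouse 27 no member was called in the EZ at day 14, where 0.0323% of all genes were, and the log2 fold changes ran from -0.24 for Rgs16 to 0.39 for Rgs4.

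Of 11 further RGS genes, 9 had enough counts to be tested, and Rgs18 and Rgs21 had at most 12 counts in any library. In the EZ 3 rose and 2 fell at day 3 (median 0.25), and 4 rose and 2 fell at day 7. Rgs1, an RGS gene of leukocytes and microglia, had the largest change at 4.45 (SE 0.71, adjusted p = 5.05e-06), Rgs20, the RZ relative of Rgs17, rose by 0.87 (SE 0.15, adjusted p = 1.7e-05), and the R7 gene Rgs11 fell by 1.41 (SE 0.26, adjusted p = 4.37e-05). At day 3 in the PIZ, Rgs20 rose by 0.94 (SE 0.15, adjusted p = 3.28e-05) and Rgs13 fell by 2.32 (SE 0.61, adjusted p = 0.00531). Rgs20 thus rose on both sides at day 3, where Rgs17, of the same subfamily, had -0.52 in the EZ and 0.14 in the PIZ. Rgs1 and Rgs13 were scarce, with an average log2 CPM of 0.01 and 0.6, so their fold changes rest on low counts.

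The G proteins and effectors around the members were called in both directions, and the receptors in the EZ mostly downward. Of all genes, 16.1% were called up and 8.61% down in the EZ at day 3, and 20.6% and 11.9% at day 7. In the PIZ at day 3 these shares were 7.12% and 1.57%. Of 13 G alpha genes, 3 rose and 4 fell in the EZ at day 3 (median 0.15). Gnai1, a Gi subunit on which most members act, fell by 1.56 (SE 0.21, adjusted p = 5.07e-07), Gnao1, the abundant neuronal Go subunit, fell by 0.60 (SE 0.08, adjusted p = 4.46e-07), and Gnaq fell by 0.73 (SE 0.11, adjusted p = 1.29e-06). On the PIZ side at day 3 Gnai1 fell by 1.01 (SE 0.21, adjusted p = 0.00052), and Gnai2 (0.75, SE 0.17) and Gna15 (1.56, SE 0.36) rose. Of 36 tested receptors coupled to Gi/o or Gq, 14 fell and 2 rose in the EZ at day 3 (median -0.77), and 20 fell and 1 rose at day 7 (median -0.85). Chrm3 and Chrm4, muscarinic receptors, fell by 2.22 (SE 0.29) and 2.53 (SE 0.35), and Adra1d, an adrenergic receptor, by 1.75 (SE 0.27), each past the threshold. In the PIZ at day 3 the somatostatin receptor Sstr2 rose by 1.33 (SE 0.29, adjusted p = 0.00107) and Adra1d fell by 0.99 (SE 0.27, adjusted p = 0.00591), the only 2 of the 36 called there.

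Of 14 tested G beta and gamma genes, 3 rose (Gng5, Gng11 and Gngt2, by 1.65, 1.27 and 2.05) and 2 fell in the EZ at day 3 (median 0.19), and Gngt2 (2.03, SE 0.41) and Gng5 (1.03, SE 0.25) rose in the PIZ. Of 16 effectors, 4 rose and 3 fell in the EZ at day 3 (median -0.25). Plcb3, a phospholipase C activated by Gq, rose by 0.92 (SE 0.16), Adcy7, an adenylyl cyclase of myeloid cells, by 2.14 (SE 0.40), and Adcy9 fell by 1.22 (SE 0.22), each past the threshold. Adcy7 (2.28, SE 0.41), Plcb3 (0.86, SE 0.16) and Plcb2 (2.05, SE 0.39) rose in the PIZ at day 3 too, where the microglia genes had risen as well, and 1 of the 16 fell there, Adcy1, a calcium-stimulated neuronal cyclase (-1.24, SE 0.35, adjusted p = 0.00828).

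Among the remaining cell type lists, 3 of 8 granule cell genes fell in the EZ at day 3 (median -0.70) and 2 in the PIZ (median -0.49), while Rgs4 was high on both sides. The granule cell sum was 465 to 652 CPM in the EZ at day 3 against 759 to 971 in saline, and with group means removed its correlation with Rgs4 was r = -0.02 over 48 libraries. Within the 24 saline libraries that correlation was r = -0.76. The PIZ libraries of saline mice 18 and 39 held 183 and 198 CPM of Rgs4, against at most 135 in every other saline library. Their groups, the saline PIZ at days 3 and 14, also held the lowest granule cell sums of saline mice, 568 and 531 CPM. The correlation without these libraries was not computed. At day 3 in the EZ, 4 of 6 interneuron genes fell (median -2.17), 3 of 6 astrocyte genes rose and 1 fell (median 0.57), 5 of 6 meningeal and fibroblast genes rose (median 2.27), and none of 5 oligodendrocyte genes passed. Apart from the granule cell genes, the only PIZ calls of these lists at day 3 were 3 astrocyte genes upward (median 0.89). Of the 4 tested choroid plexus genes 1 rose and 1 fell in the EZ at day 3. The part of these cell types in the values of the members was not tested.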

How the data were processed

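RNA of 48 dorsal dentate gyrus pieces from 24 mice was made into stranded poly(A) libraries, with all samples extracted at the same time. Per the labels and the study's methods, the authors trimmed reads with fastp 0.20.1, aligned them to GRCm39 with HISAT2 2.2.1 and counted them per Gencode gene with featureCounts of Subread 1.6.4, using strand, counting multi-mapping reads at their primary alignment and giving an overlapping read to the gene of largest overlap. The authors deposited raw whole-number counts, 1 column per library, and compared groups with DESeq2 1.32.0 in R 4.1.1. Rgs6, Rgs7 and Rgs10 overlap non-coding genes on the same strand, with which reads could be shared.

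From the counts, edgeR 4.0.16 in R 4.3.3 fitted 12 group means over all 48 libraries with TMM scaling, after filterByExpr had left 21390 of 55357 genes, and tested 16 contrasts by quasi-likelihood with Benjamini-Hochberg adjustment over all genes tested. A call needed an adjusted p under 0.01 and over 1.5-fold change. SE values are the log2 fold change divided by the square root of F. Levels are CPM, log2 CPM has a prior count of 2, and RPKM uses exon lengths of a later Gencode release. Libraries held 17762656 to 25712975 counts, at which the spread between mice exceeds counting error for most members. The mouse number in the labels pairs the EZ and PIZ of 1 mouse: residual correlations of the 24 pairs ran from -0.054 to 0.376, and a fit with mouse as a replicate block was an alternative for contrasts between sides. Other alternatives were RLE or library size scaling, no filter or at least 10 counts in every library, the compared groups only, DESeq2 1.42.0, a prior count of 0.5 and leaving out each mouse. Scripts were tested on simulated data.

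The members and all gene lists were chosen with earlier results of these data known. Beside the members, the text names, of each pathway list, up to 3 called genes of smallest p at day 3 on each side, and the 5 genes most correlated with Rgs4. The rule also gives the 2 most abundant genes of each marker list. Both are named for CA2, mural cells and neurons, only Prox1 and Csf1r for granule cells and microglia, and none for the other marker lists, which are given by counts alone. This selection was made after the values were seen, and one gene that the rule names is not reported here. Gnb5, Adcy1, Cd3e, Cd3g, Ms4a1, Rgs18 and Rgs21 were named after their values were seen, as were the pairs of members and lists that were correlated, the values of mouse 27, the microglia genes without it and the correlations without the day 3 kainate libraries. The age of the mice differs between the series text and the methods. Sex per library was not used here. Promoter windows are from RefSeq (GRCm38.p6), in which 9 of the 10 members had an entry.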

Additional observations from a re-analysis of the deposited data

Results flagged for a closer look

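Of 120 groups of 4 libraries tested for a sample far from the others, 10 had one, where chance gives about 1 in 20. Values are log2 CPM, and 4 of the 10 were libraries of kainate mouse 27 at day 14. In its EZ library Rgs2 was at 7.73 (others 5.07 to 5.47), Rgs6 at 3.44 (others 4.47 to 4.59) and Rgs8 at 5.51 (others 6.70 to 6.88), and in its PIZ library Rgs7 was at 6.07 (others 6.28 to 6.31). In the EZ at day 3, kainate mouse 44 was at 4.33 for Rgs6 (others 3.21 to 3.31). The other 5 were saline libraries. Rgs4 was at 7.51 in the PIZ of mouse 18 at day 3 (others 7.00 to 7.08), which is the control group of the tested PIZ rise. In the PIZ at day 14, Rgs7 was at 6.38 in mouse 24 (others 6.25 to 6.27), Rgs8 at 6.71 in mouse 39 (others 6.96 to 6.99) and Rgs16 at 1.75 in mouse 24 (others 2.00 to 2.04). Rgs16 was at 1.78 in the EZ of mouse 29 at day 3 (others 2.05 to 2.07).

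The kainate effect on Rgs10 was 1.47 larger on the log2 scale in the EZ than in the PIZ at day 7.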

How the results depend on the processing

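The counts of members called leave out Rgs4 wherever the EZ of kainate mice enters. They moved by over 1.5 times as follows. In a model of the compared groups only the count was 3 in the EZ at day 3 (5 in the model of all groups, with Rgs2 and Rgs16 lost), 3 in the EZ at day 7 (6, with Rgs8, Rgs14 and Rgs17 lost), 1 in the PIZ at day 7 (0) and 2 for EZ against PIZ at day 7 (1). For EZ against PIZ at day 7 it was 0 without a filter, 2 with at least 10 counts in every library, 3 in DESeq2 and 2 with mouse as a replicate block (Rgs2 and Rgs10), and DESeq2 gave 1 (Rgs10, against 0) for the change from day 3 to day 7 in the EZ. The block changed no other call. Leaving out 1 mouse gave 1 (Rgs2, without mouse 38) to 6 (without mouse 44) in the EZ at day 3, with 3 without any of mice 18, 29, 30, 37 and 42, 0 to 1 in the EZ at day 14 (1, Rgs2, without mouse 14 or mouse 36), 1 to 1 in the PIZ at day 3, 0 to 1 and 0 to 3 for EZ against PIZ at days 3 and 7, and 0 to 4 for the change from day 7 to day 14 in the EZ (4 without mouse 27, where 18.8% of all genes were called). Signs turned only for values that had not been called. Rgs5 in the PIZ at day 3 was -0.003 under RLE and in DESeq2, -0.009 without a filter, and -0.023, -0.033 and -0.042 without mice 41, 42 and 44 (highest 0.08, without mouse 38). Rgs8 there was -0.002 under RLE and in DESeq2, -0.010 without a filter, and -0.054, -0.046 and -0.137 without mice 29, 30 and 38 (highest 0.115, without mouse 42). In the EZ Rgs7 at day 3 ran from -0.059 without mouse 30 to 0.158 without mouse 44, Rgs7 at day 7 was -0.066 and -0.049 without mice 26 and 35 and at most 0.239 (without mouse 21), and Rgs6 at day 7 ran from -0.366 without mouse 26 to 0.015 without mouse 21. At day 14 without mouse 27 Rgs5 was -0.035 (up to 0.276 without mouse 40) and Rgs17 0.103 (down to -0.323 without mouse 36) in the EZ, and Rgs7 0.008 (down to -0.07 without mouse 36) and Rgs10 -0.038 (up to 0.336 without mouse 40) in the PIZ. Rgs6 in the EZ was -0.032 and -0.029 without mice 14 and 31 (0.277 without mouse 27), and Rgs16 0.014 and 0.063 without mice 14 and 39 (-0.243 without mouse 27). Of 544 values with 1 mouse left out, Rgs4 in the EZ not counted, 488 kept sign and side of the threshold, as did 369 of 387 under the other settings and 120 of 120 levels with the smaller prior count. Library size scaling moved the median of all genes at day 3 to 0.159 (EZ) and 0.111 (PIZ), from 0.032 and 0.016 under TMM. The causes were not tested. Depth limited Rgs16 most, with 44 to 405 counts per library.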
